A study of Mus musculus with 8 samples.

Results

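The natriuretic peptide system was described in the pressure-loaded mouse ventricle through 8 genes taken as a family by their function: the peptide precursors Nppa, Nppb and Nppc, the receptors Npr1, Npr2 and Npr3, and the precursor-cleaving proteases Corin and Furin. The list was given by name and no measured value enters its rule, but it was drawn up with earlier results of these data known. All 8 had at least 1 probe set annotated to that gene alone, 10 probe sets in total among the 45101 of the array, and a gene with several was represented by its brightest, judged by the mean over all arrays. Of the 8, 6 were above 5 on the log2 scale in 4 or more of the 8 arrays and were tested among 9607 genes. The other members, Nppc and Npr1, did not reach that level in any array and are described by their values.

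The samples were total RNA of heart ventricles from 8 male mice of the inbred strain FVB, 8 to 12 weeks old, each hybridised to 1 Affymetrix array. The ascending aorta had been banded in every mouse, both groups included, and the hearts were taken 1 week later. In 4 mice a transgene for CHF1/Hey2, a basic helix-loop-helix repressor, was expressed under the mlc2v promoter, which is active in heart muscle, and 4 mice were wild type. The comparison asked how overexpression of CHF1/Hey2 in the myocardium bears on the loaded ventricle. Unbanded hearts were not analysed here, so no value below is a response to banding. The sources used here do not give the number of transgenic lines.

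Atrial natriuretic peptide (from Nppa) and B-type natriuretic peptide (from Nppb) are hormones that heart muscle cells secrete under stretch, and the ventricle makes far more of both when it is overloaded. Their precursors are cut by the membrane protease corin, itself activated by a proprotein convertase, and by furin. Both hormones act on the guanylyl cyclase encoded by Npr1 to raise cyclic GMP, C-type natriuretic peptide (from Nppc) acts on the related cyclase encoded by Npr2, and the receptor encoded by Npr3 has no cyclase domain and clears all of these peptides. Relatives of CHF1/Hey2 and the protein itself are known to repress Nppa in reporter assays, in part through the activator Gata4.

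Nppa and Nppb are neighbours on mouse chromosome 4. Their upstream sequence is shown because both genes are textbook targets of GATA factors, and capitals mark the matches to the GATA core GATAA (or TTATC on the other strand) and to the NKX core CAAGTG (or CACTTG). The sequences are those of RefSeq on build GRCm38.p6, plus strand, and positions count back from the annotated start site, with -1 next to it. For Nppa the 250 bases before the start (chr4:148000472-148000721) are given, and for Nppb the 30 bases from -101 to -72 (chr4:147985799-147985828). The annotated span of the Nppb gene begins at chr4:147985786, before the start site used for its promoter. These 30 bases therefore lie inside that span.
Nppa: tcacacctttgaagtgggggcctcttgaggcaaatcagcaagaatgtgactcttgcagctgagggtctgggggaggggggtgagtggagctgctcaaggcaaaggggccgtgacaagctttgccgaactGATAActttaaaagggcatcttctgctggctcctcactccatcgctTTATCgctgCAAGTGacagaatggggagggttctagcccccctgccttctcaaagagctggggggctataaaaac
Nppb: tgcagctGATAAatcagaGATAAccccacc
In the 250 bases, GATAA matched at -121 and -75 in Nppa and at -94 and -83 in Nppb, and in 22.6% of 32851 promoters of the same length. CAAGTG matched at -66 in Nppa and not in Nppb, and in 11.6% of promoters. Among the other members GATAA matched in none and CAAGTG in 1 of the 2 promoters of Furin, at -205 and -37. The E-box letters CACGTG and CACGCG, searched on both strands because Hey proteins bind such boxes, matched in neither of these windows. Among the other members CACGTG matched in none, and CACGCG matched in Nppc at -97, in Npr1 at -218 and in the other promoter of Furin at -158. They are held by 6.02% and 7.62% of all promoters. The general E-box CANNTG, with N for any base, matched in Nppa at -195 and -66 and in Nppb at -99. It is held by 66.2% of all promoters. A match describes letters, not binding.

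The arrays of the series did not resemble each other equally. Measured against the median of the others, transgenic replicate 2 was off by over 2-fold for 3572 of the 9607 genes and transgenic replicate 3 for 891, against 72 to 149 in each of the other 6. The log2 difference between the 3′ and 5′ control probe sets of Gapdh was between -0.28 and -0.11 and that of Actb between 0.62 and 1.21 over the 8 arrays, with transgenic replicate 2 at -0.27 and 0.62 and transgenic replicate 3 at -0.25 and 1.02. For Hey2 itself the transgenic label brought no higher values (5.87, 5.70, 6.26 and 6.02 against 5.89, 5.96, 5.68 and 6.76 in wild type). It is not known whether that probe set can detect the transgene's transcript. The groups are therefore named by their labels.

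No member separated the groups. Of the 6 tested members, 2 had a higher and 4 a lower mean in the arrays labelled transgenic, where 57.0% of all genes had a higher mean. With limma and Benjamini-Hochberg adjustment over all genes, 0 of the 6 passed, as did 0 of 9607 genes (0% called). At an unadjusted limma p under 0.05 the members again numbered 0, against 1.59% of all genes, and in none of them did the groups fail to overlap, against 2.48% of all genes. Within the transgenic label the arrays were unequal: Nppa was 4.09-fold below its wild-type mean in transgenic replicate 3, and transgenic replicate 2 gave the lowest Npr3 and Corin values and the highest Npr2 value.

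**Figure D1:**
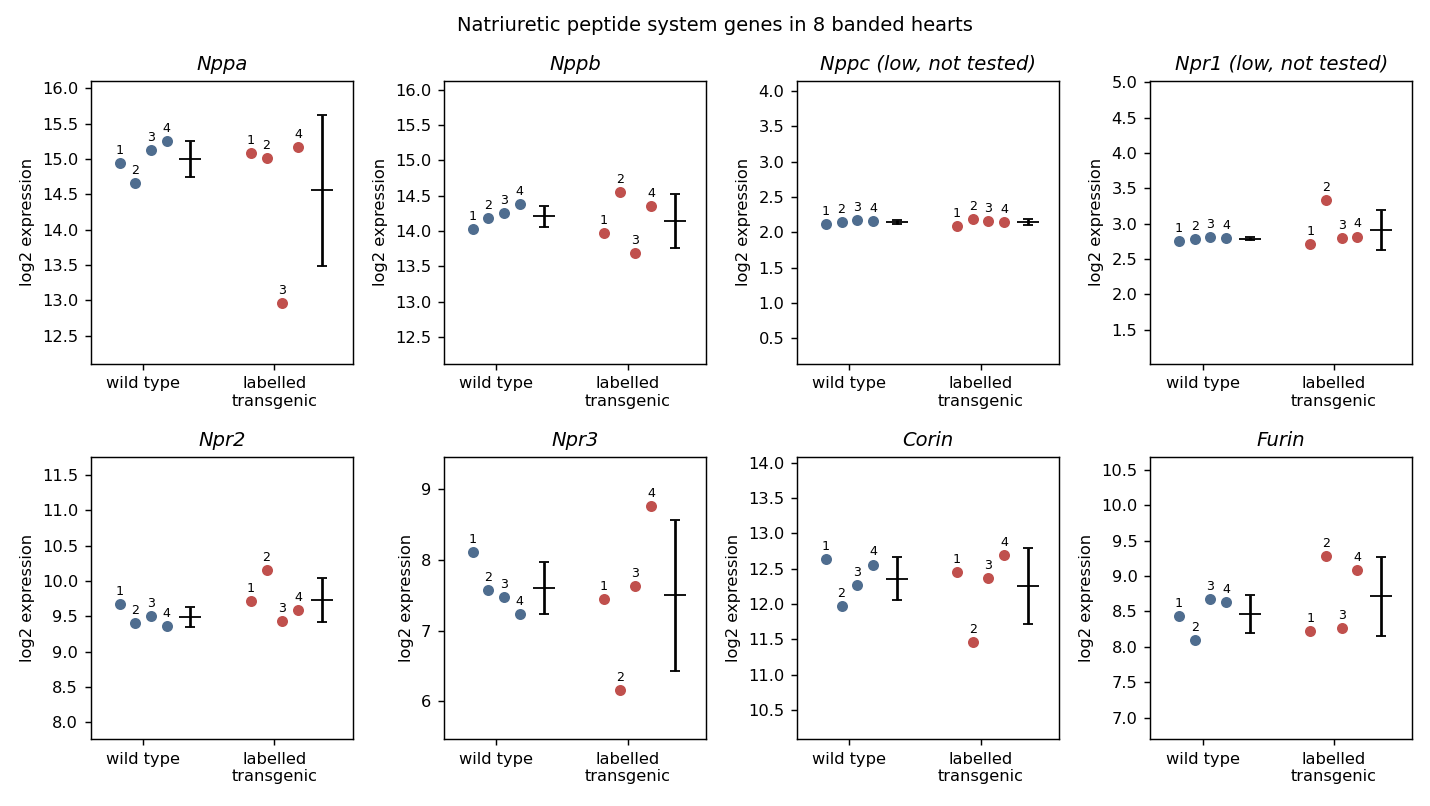
Log2 expression of the 8 genes in each array, with wild-type arrays in blue, arrays labelled transgenic in red, replicate numbers above the points, and bars for the group mean and SD (n = 4). Every panel spans 4 log2 units. Nppa of transgenic replicate 3 lies at 12.96 and all other Nppa values lie at 14.66 or above.

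Among the peptides, Nppa had log2 values of 15.08, 15.02, 12.96 and 15.17 (transgenic replicates 1 to 4) against 14.94, 14.66, 15.13 and 15.25 (wild-type replicates 1 to 4). Transgenic replicate 3 was thus the lowest array by a gap of 1.70, and the other 3 arrays labelled transgenic lay inside the wild-type range. The means were 14.56 ± 1.06 and 15.00 ± 0.25 (SD, n = 4 each). The difference was -0.44 (SE 0.476, 95% interval -1.52 to 0.65; limma adjusted p = 0.813; exact two-sided permutation p = 0.686). Without transgenic replicate 3 it was 0.09, and the SD of the 3 remaining arrays labelled transgenic was 0.0736.

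In transgenic replicate 3 Nppa lay 4.09-fold below the wild-type mean, whereas all 4 wild-type hearts lay within 1.50-fold of each other. It was the only tested member at least 2 log2 units below the median of the other 7 arrays in that heart, where 1.38% of all genes were. In bulk tissue, fewer cells of a type and less RNA per cell cannot be told apart. The heart muscle markers listed as ventricular (8 of 8 on the array) averaged 14.45 in that heart and 14.26 to 14.40 in wild type. Not all of them are confined to the ventricle, so their mean does not separate ventricular from atrial muscle. Among them, Irx4 was 8.47 there and 7.39 to 8.28 in wild type. The markers of fibroblasts (8 of 8) averaged 11.06 there, 12.57 to 12.96 in the rest of its group and 12.76 to 13.07 in wild type. Every one lay below its wild-type range, but by unequal amounts. Col1a1 was 10.44 against 13.94 to 14.35 and Col1a2 10.43 against 13.07 to 13.53, whereas Dcn was 13.27 against 13.49 to 13.96 and Pdgfra 9.38 against 9.76 to 10.34. Those of macrophages (6 of 6) averaged 8.41 there and 8.76 to 9.65 in wild type. However, Cd163 was 7.51 there and 6.98 to 7.45 in wild type, and Cd68 was 6.27 there and 6.24 to 8.51. The other macrophage markers lay below their wild-type ranges. Those of smooth muscle (5 of 5) averaged 9.43 there and 9.90 to 10.13 in wild type, and the markers did not go together: Cnn1 was 6.70 against 8.47 to 10.14 and Tagln 10.01 against 10.56 to 10.81, but Myh11 (8.68) and Acta2 (12.46) lay inside the wild-type range and Smtn (9.32) above it. Those of endothelium and endocardium (8 of 8) averaged 8.99 there, inside the wild-type range of 8.93 to 9.29. The part of these cells in the Nppa value was not tested.

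Atrial muscle makes Nppa at the highest rate in the adult, and its markers were read in that heart as well. The 8 atrial genes averaged 7.32 in that heart, from 6.94 to 7.59 over its whole group and from 6.76 to 7.22 in wild type. Myl7, the atrial regulatory light chain, was 11.21 there and 9.90 to 10.47 in wild type, whereas Dkk3 was 7.38 there and 8.31 to 8.70 in wild type. Between the groups, 5 of the 6 tested atrial genes had a higher and 1 a lower mean under the transgenic label. Of all genes, 57.0% had a higher mean. The median difference of the list was 0.63, where that of all genes was 0.06. Relative to wild type the list's median was -0.01, 0.90, 0.78 and 0.42 in transgenic replicates 1 to 4. In wild-type replicates 1 to 4 it was 0.41, -0.22, -0.23 and 0. After adjustment 0 of 6 passed. Myl7 (0.71) and Stard10 (0.63) had an unadjusted limma p under 0.05, at 0.0102 and 0.0433, as did 1.59% of all genes. Without transgenic replicates 2 and 3 their differences were 0.48 and 0.20. Bmp10, a defining atrial gene, lay between 1.98 and 2.06 in all 8 arrays and Gja5 between 2.52 and 2.66, both at the low end of the scale. The list mean includes both and does not measure an amount of atrial tissue. The part of atrial tissue in the Nppa values and in the Nppa difference between the groups was not tested.

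Nppb, the ventricular stress hormone next to Nppa, was far more even. Its values were 13.97, 14.55, 13.69 and 14.35 in transgenic replicates 1 to 4 and 14.02, 14.18, 14.25 and 14.38 in wild type. Transgenic replicate 3 was again the lowest array, but at 0.52 below the wild-type mean, or 1.43-fold, and transgenic replicate 2 was the highest. The means were 14.14 ± 0.39 and 14.20 ± 0.15 (SD, n = 4 each), with a difference of -0.07 (SE 0.218, 95% interval -0.56 to 0.43; limma adjusted p = 0.912; exact two-sided permutation p = 0.771). Without transgenic replicate 3 the sign turned (0.08).

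The low Nppa value did not extend to the genes around it. Of the 4 protein-coding genes on either side of the Nppb and Nppa pair in the RefSeq order, 4 of 8 were tested. In transgenic replicate 3, Mfn2, a mitochondrial fusion protein, differed from its wild-type mean by 0.13, Plod1, a lysyl hydroxylase of collagen, by -0.39, 2510039O18Rik by 0.07 and Agtrap, an angiotensin receptor-associated protein, by -0.22, against -2.03 for Nppa and -0.52 for Nppb.

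Nppc was at the bottom of the scale in every array, between 2.09 and 2.19, where the array medians over all probe sets were 3.33 to 3.43. The groups overlapped, and the means were 2.15 ± 0.0438 under the transgenic label and 2.15 ± 0.0239 in wild type (SD, n = 4 each). At this level the probe set had no readable signal, which does not show that the transcript was absent.

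**Figure D2:**
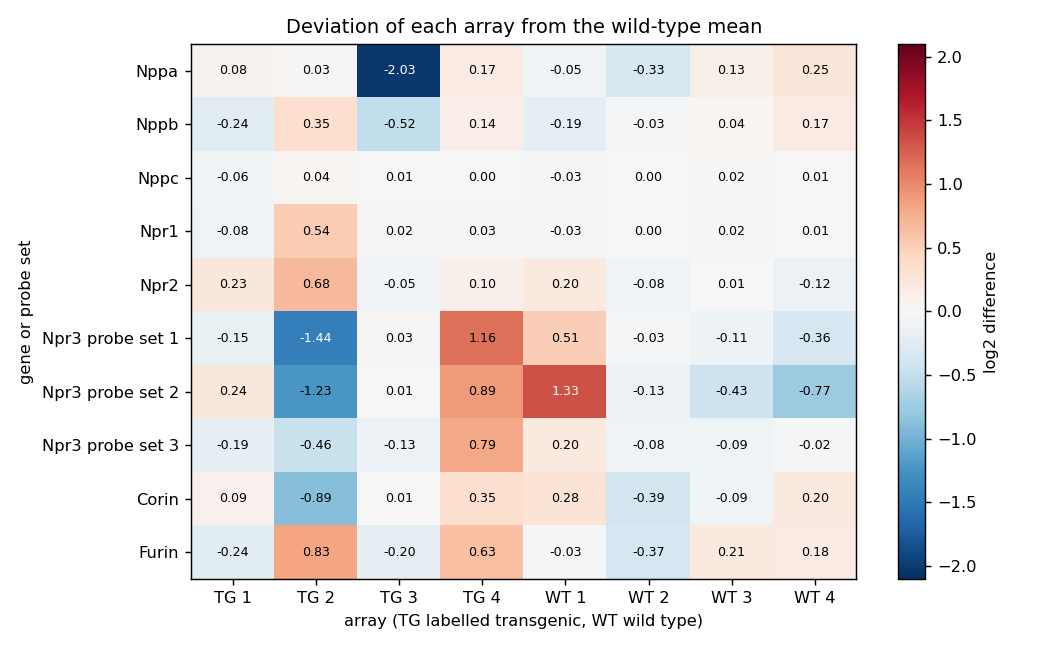
Log2 difference of each array from the wild-type mean for the 10 probe sets of the 8 genes, with blue for lower and red for higher values. The deepest blue cell is Nppa in transgenic replicate 3 at -2.03, and the 3 Npr3 probe sets are lowest in transgenic replicate 2.

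Among the receptors, Npr3, the clearance receptor, varied most between hearts. Its brightest probe set gave 7.45, 6.16, 7.63 and 8.76 (transgenic replicates 1 to 4) against 8.11, 7.57, 7.48 and 7.24 (wild-type replicates 1 to 4). Transgenic replicate 2 was the lowest array and transgenic replicate 4 the highest, with all wild-type hearts between them, a span of 6.08-fold over the 8 arrays. The means were 7.50 ± 1.07 and 7.60 ± 0.37 (SD, n = 4 each). The difference was -0.10 (SE 0.490, 95% interval -1.22 to 1.01; limma adjusted p = 0.940; exact two-sided permutation p = 0.914). It was 0.35 without transgenic replicate 2 and -0.52 without transgenic replicate 4, so its sign rested on single arrays. It was 0.07 without wild-type replicate 1.

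The other probe sets of Npr3 placed the same hearts at the ends for the most part. The second brightest gave 5.82, 4.35, 5.59 and 6.47 in the arrays labelled transgenic and 6.91, 5.45, 5.15 and 4.80 in wild type. Transgenic replicate 2 was again lowest, but wild-type replicate 1 was highest, and transgenic replicate 4 came next. Its difference was -0.02 (SE 0.555; limma adjusted p = 0.992 over all probe sets that passed). The third stayed below the level of 5 in all arrays, with its lowest value of 3.04 in transgenic replicate 2 and its highest of 4.29 in transgenic replicate 4. Its wild-type values lay between 3.41 and 3.70.

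The spread of Npr3 was not confined to the transgenic label. Its wild-type SD of 0.37 was larger than that of 87.0% of the genes tested. Over all 8 arrays its SD of 0.74 was larger than that of 85.4%, and that of Nppa (0.75) larger than that of 86.0%. Without transgenic replicate 2 the SD of Npr3 in the arrays labelled transgenic was 0.71.

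Npr2, the receptor of C-type natriuretic peptide, gave 9.72, 10.16, 9.44 and 9.59 in transgenic replicates 1 to 4 and 9.68, 9.41, 9.50 and 9.36 in wild type. Transgenic replicate 2 was highest by a gap of 0.44, and transgenic replicate 1 came next, just above the highest wild-type heart. The means were 9.73 ± 0.31 and 9.49 ± 0.14 (SD, n = 4 each), which differ by 0.24 (SE 0.195, 95% interval -0.20 to 0.69; limma adjusted p = 0.813; exact two-sided permutation p = 0.229). This was the smallest permutation p of the tested members, where 4 arrays against 4 cannot go below 0.0286. Without transgenic replicate 2 the difference was 0.10.

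Npr1, the receptor of both cardiac hormones, was read only near the low end of the scale. It gave 2.71, 3.33, 2.80 and 2.82 in transgenic replicates 1 to 4 and 2.75, 2.79, 2.81 and 2.80 in wild type. Transgenic replicate 2 alone stood above the others. The wild-type values spanned 0.0572 and lay below the median of every array, so the abundance of Npr1 could not be judged from this probe set.

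Of the processing enzymes, Corin, the protease of heart muscle cells that cuts the Nppa precursor, gave 12.45, 11.47, 12.37 and 12.70 in transgenic replicates 1 to 4 and 12.64, 11.97, 12.27 and 12.56 in wild type. Transgenic replicate 2 was lowest, 1.85-fold below the wild-type mean, and the other 3 arrays labelled transgenic lay among or just above the wild-type hearts. Transgenic replicate 3, with its low Nppa, had Corin 0.01 from the wild-type mean. The mean was 12.25 ± 0.54 against 12.36 ± 0.30 in wild type (SD, 4 hearts each), so transgenic minus wild type was -0.11 (SE 0.290, 95% interval -0.77 to 0.55; limma adjusted p = 0.892; exact two-sided permutation p = 0.743). Without transgenic replicate 2 it was 0.15.

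Furin, the ubiquitous proprotein convertase, gave 8.22, 9.29, 8.26 and 9.09 in transgenic replicates 1 to 4 and 8.43, 8.09, 8.67 and 8.64 in wild type. Transgenic replicates 2 and 4 lay above all wild-type hearts, and transgenic replicates 1 and 3 lay inside their range. The means were 8.72 ± 0.56 and 8.46 ± 0.27 (SD, n = 4 each), which differ by 0.26 (SE 0.290, 95% interval -0.40 to 0.92; limma adjusted p = 0.813; exact two-sided permutation p = 0.429). Without transgenic replicate 2 it was 0.06, and without transgenic replicate 1 it was 0.42.

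**Figure D3:**
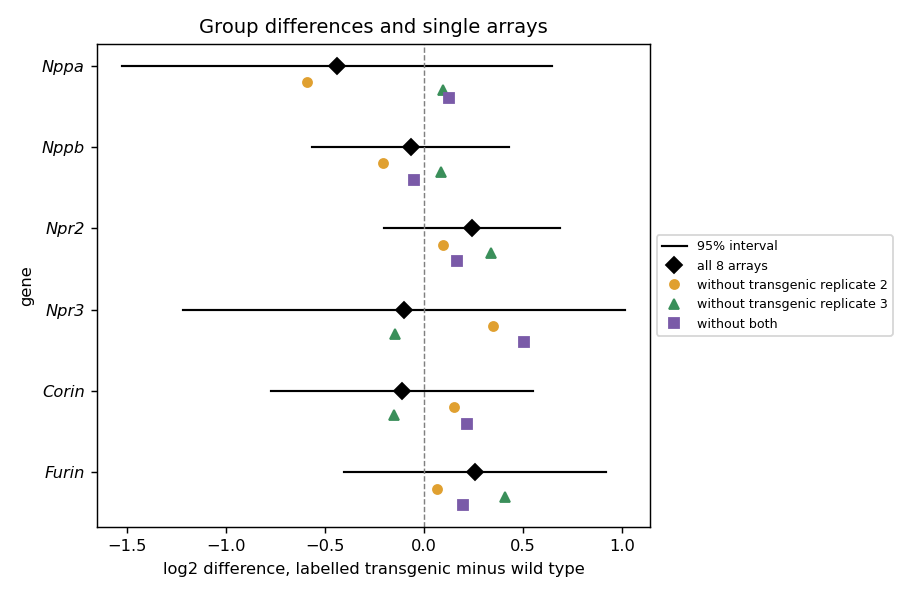
Log2 difference of the group means, labelled transgenic minus wild type, for the 6 tested genes, as diamonds with 95% limma intervals, and the same difference without transgenic replicate 2, without replicate 3 and without both. All 6 intervals include 0, and the sign of Nppa, Nppb, Npr3 and Corin depends on the arrays left out.

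The extremes of the members followed the arrays as a whole. Transgenic replicate 2 was the highest or lowest of the 8 arrays for 5 of the 6 tested members (highest for Nppb, Npr2 and Furin, lowest for Npr3 and Corin), as it was for 77.8% of all genes. Transgenic replicate 3 was at an end for 2 of 6, both peptide genes, against 39.5% of all genes. The SD was larger in the arrays labelled transgenic for 6 of 6 members and for 89.1% of all genes. These shares are near the background and say little about the members. The intervals leave room for differences in either direction, the widest for Npr3, from 0.430-fold to 2.02-fold, and for Nppa, from 0.348-fold to 1.57-fold.

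The genes whose pattern lay closest to Nppa were found by the root mean square difference over the 8 arrays after each gene was centred on its wild-type mean. The 3 nearest were Gask1b at 0.128, Sparc, a secreted glycoprotein that binds collagen, at 0.157, and Clu, the secreted chaperone clusterin, at 0.166, where the median over all genes was 0.827. Each was lowest in transgenic replicate 3, Gask1b at 9.51 against 11.48 to 12.02 in the other 7 arrays, Sparc at 12.45 against 14.16 to 14.58 and Clu at 13.88 against 15.51 to 16.03. The likeness therefore lay in 1 array. None of the 3 passed the limma test between the groups (adjusted p = 0.813 each).

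For Npr3, whose SD was the second largest of the members, the nearest were Tmem38b, an intracellular cation channel, at 0.271, Ank3, the adaptor ankyrin-G, at 0.275 and Tmem117 at 0.283, where the median over all genes was 0.821. All 3, chosen for their likeness to Npr3, were lowest in transgenic replicate 2 and highest in transgenic replicate 4. Tmem38b was 7.95 and 10.30 in these arrays, Ank3 9.61 and 11.76, and Tmem117 6.70 and 8.28. Transgenic replicate 2 was the highest or lowest of the 8 arrays for 77.8% of all genes.

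**Figure D4:**
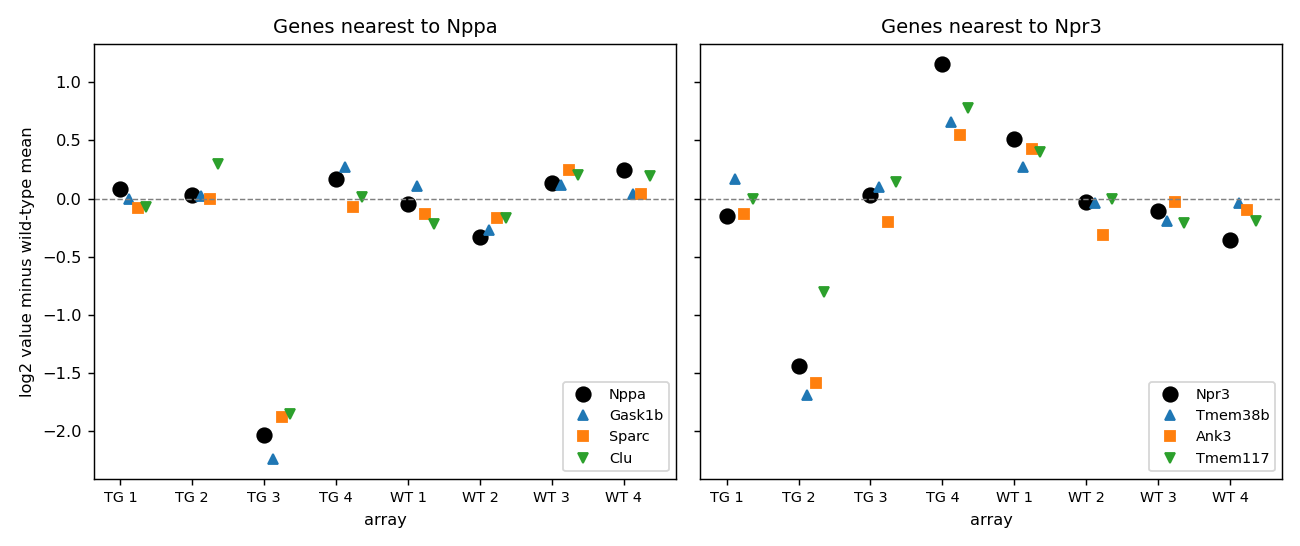
Log2 value minus wild-type mean in each array (TG, labelled transgenic; WT, wild type) for Nppa and Npr3, as black circles, and for the 3 genes nearest to each. The genes near Nppa share its low value in TG 3, and those near Npr3 share a low value in TG 2 and a high one in TG 4.

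Downstream of the receptors, cyclic GMP activates protein kinase G and is broken down by phosphodiesterases. Of 19 genes of cyclic GMP signalling and hydrolysis, 16 were tested, of which 6 had a higher and 10 a lower mean in the arrays labelled transgenic. None passed (0 adjusted, 0 at an unadjusted limma p under 0.05, against 1.59% of all genes). The median difference was -0.20, where that of all genes was 0.06, and without transgenic replicate 2 it was 0.02. Relative to wild type the list's median was -0.60 in transgenic replicate 2 and from -0.04 to 0.02 in the remaining 3 of that group.

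Pde3b, a phosphodiesterase that cyclic GMP inhibits, gave 4.25 in transgenic replicate 2, 7.23 and 7.98 in replicates 3 and 4, and 7.56 to 8.52 in wild type, with transgenic replicate 1 just below replicate 3. Its difference of -1.38 (SE 0.715; limma adjusted p = 0.813) was -0.59 without transgenic replicate 2. Pde5a, which hydrolyses cyclic GMP, differed by -0.48 (SE 0.286) and by -0.20 without that array. Rgs4, a regulator of G protein signalling, differed by 0.55 (SE 0.270), with 8.28 to 9.39 under the transgenic label and 7.83 to 8.45 in wild type, and by 0.34 without transgenic replicate 2. The gene of protein kinase G itself, Prkg1, named here after its values were seen, was 5.16 in transgenic replicate 2 and 7.53 to 8.77 in the other 7 arrays.

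Of 11 further genes of peptide processing and clearance, 7 were tested, with 4 higher and 3 lower, a median difference of 0.05 and 0 that passed. Pcsk7, a relative of Furin, was the 1 gene with an unadjusted limma p under 0.05, where 1.59% of all genes had one. It gave 7.11, 7.67, 7.36 and 6.83 in transgenic replicates 1 to 4 and 6.78, 6.82, 6.76 and 6.77 in wild type, so that the groups did not overlap, as for 2.48% of all genes, with 6.83 and 6.82 as the closest values. Its difference was 0.46 (SE 0.201; limma adjusted p = 0.813) and 0.32 without transgenic replicate 2. Pcsk6, the convertase that activates corin, differed by 0.37 (SE 0.258) and by 0.16 without transgenic replicate 2, and Ece1, the endothelin-converting enzyme, by 0.20 (SE 0.217) and by 0.03 without that array. The median of this list was 0.28 without wild-type replicate 1 and -0.17 without transgenic replicate 1.

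Cardiac transcription factors, several of which act on the Nppa promoter, were tested for 20 of 22 genes, with 12 higher and 8 lower, a median difference of 0.14 and 0 that passed. Without transgenic replicate 2 that median was 0.08, and relative to wild type it was 0.71 in transgenic replicate 2 and from -0.01 to 0.14 in the rest of that group. Hey1, a repressor related to Hey2, was the 1 gene with an unadjusted limma p under 0.05, where 1.59% of all genes had one. It gave 6.61, 7.40, 7.47 and 7.33 in transgenic replicates 1 to 4 and 6.59, 6.97, 6.26 and 6.63 in wild type, a difference of 0.59 (SE 0.245; limma adjusted p = 0.813) in which only transgenic replicate 1 lay within the wild-type range. Gata4, the activator named above, gave 9.16, 9.62, 9.24 and 8.96 and, in wild type, 9.36, 9.03, 8.24 and 8.39, a difference of 0.49 (SE 0.282) that was 0.32 without wild-type replicate 3. In the heart with the low Nppa value Gata4 was thus inside the wild-type range. Tbx5, a T-box activator, differed by 0.56 (SE 0.311) and by 0.27 without transgenic replicate 2.

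**Figure D5:**
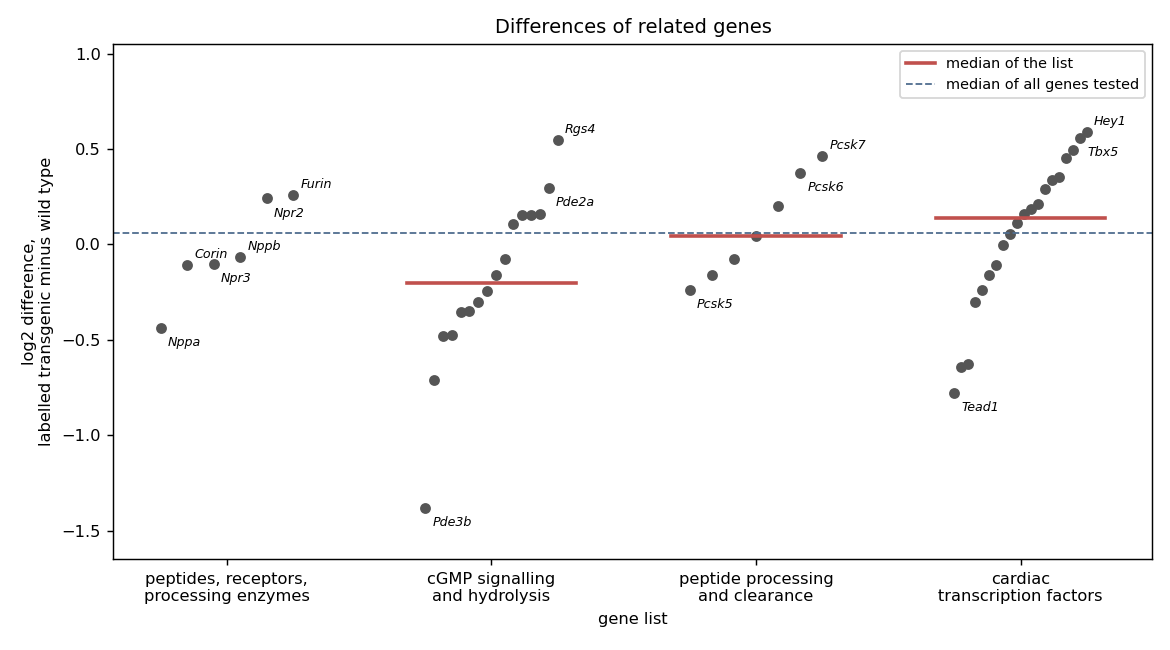
Log2 difference, labelled transgenic minus wild type, of each tested gene (points) for the 6 tested members and for 3 lists of related genes, with the median of each list in red and the median of all 9607 genes (0.06) as a dashed line. None of the points passed the adjusted limma test.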

How the data were processed

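The authors deposited log2 expression values of 45101 probe sets, and the submitters' processing notes name GCRMA, which corrects background by probe sequence, normalizes arrays by quantiles and summarizes probes. No version of it is stated in the sources used here. Probe sets were named from the platform annotation (34958 with 1 symbol, 932 with several, 9211 unnamed here), and only those with 1 symbol were used. Probe sets above log2 5 in at least 4 of 8 arrays were kept, then the one with the highest mean per gene. The resulting 9607 genes entered limma 3.58.1 (lmFit, eBayes, in R 4.3.3), with Benjamini-Hochberg adjustment at 0.05. The fit was run beforehand on simulated independent normal values with equal spread in both groups. Those values lack the deviating arrays of these data, so they do not show how the fit behaves with them. Each member also had an exact permutation test of its group means. Nothing says how the mice were bred or batched, so p-values measure the spread between these arrays. Arrays carry no depth of reads, and precision depends on how many there are and on the spread of each gene between them.

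The members, lists, alternatives and naming rule (all members, then per list the genes with an unadjusted p under 0.05, filled up to 3 by the smallest p) were chosen with earlier results of these data known. Irag1 was found under its older symbol. Alternatives changed the filter, scaling, model and probe set rule, or left arrays out.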

Additional observations from a re-analysis of the deposited data

Results flagged for a closer look

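In groups of 4, a sample was singled out when its gap to the nearest other, as a share of the range, exceeded Dixon's 95% critical value. Of the 50 groups of values checked, chance alone would single out about 1 in 20. Nppa at 12.96 in transgenic replicate 3 stood apart from the other arrays labelled transgenic, as did 2 genes chosen for their likeness to it, Gask1b at 9.51 and Sparc at 12.45 in the same array. Hey1 at 6.61 in transgenic replicate 1 lay apart on the low side of its group. Pde5a at 6.89 in wild-type replicate 3 lay apart on the high side of wild type.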

How the results depend on the processing

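No member passed under any of the 18 alternatives (limma adjusted p of 0.273 or more), and the direction of Npr2 held in all of them. Over all genes, 0 passed in every alternative except array weights, where 1 did. With array weights the differences of Npr3, Corin and Furin turned to 0.12, 0.0805 and -0.19, that of Nppa shrank to -0.08 and that of Nppb grew to -0.25. There Npr2, at 0.24, was the 1 member with an unadjusted limma p under 0.05 (limma adjusted p = 0.273). Without transgenic replicates 2 and 3 together, those of Nppa, Npr3 and Corin turned to 0.13, 0.50 and 0.22. Leaving out 1 array at a time gave -0.64 to 0.0937 for Nppa, -0.20 to 0.0836 for Nppb, -0.52 to 0.35 for Npr3, -0.26 to 0.15 for Corin and -0.36 to 0.0162 for the median of the cyclic GMP list. These turns come from fewer or down-weighted arrays of unequal values. With the replicate number as a block, 0 genes passed and the differences of Nppa and Nppb stayed at -0.44 and -0.07 (limma adjusted p = 0.845 and 0.931). Deviations of arrays with the same number correlated at 0.30, -0.01, -0.33 and 0.20 for replicates 1 to 4. Of the arrays labelled transgenic, 2 of the 4 correlated best with their own number, replicates 1 and 4. Transgenic replicates 2 and 3 deviated from all other arrays, so these values cannot decide whether the number pairs the mice. Signal near the low end limits Nppc and Npr1.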
